A study of Mus musculus with 9 samples.

Results

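Neural stem cells and astrocytes of normal mouse brain were compared across all genes of a single-colour expression microarray, the SurePrint G3 Mouse GE 8x60K. The comparison takes 4 of the 9 arrays of the series: the 2 labelled as neural stem cells and the 2 labelled as astrocytes. Both groups are described as wild-type brain cells of the C57BL/6J strain, with no mutant allele and no agent given. Age, sex, isolation, culture and passage are not given in the sources used here. A further 2 arrays of glioma cells from MADM mice (Mosaic Analysis with Double Markers) served only to estimate the spread between arrays, and 3 arrays of glioma tissue with EZH2 knocked out were not used. In each case total RNA was purified with TRIzol and labelled with the dye Cy3. Nothing in the labels ties the arrays of a group to separate animals or cultures, so the spread behind the p-values below is that of these arrays and could be technical.

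A gene's level is given as its normalised log2 signal, which is the log2 processed signal minus the 75th percentile of that array, so that 0 marks a gene at the 75th percentile. Levels of different genes come from different probes and were not compared with each other. Fold changes are neural stem cells minus astrocytes on the log2 scale with their standard error, and adjusted p-values come from limma over 24439 genes. To be called, a gene had to differ by 2-fold or more with an adjusted p below 0.05. The genes tested were well above background on both arrays of at least 1 of the 2 groups, which 999 of the 1098 genes on the lists below met, and a gene that passed through 1 group alone was bound to be brighter there. Where every array of 1 group was not well above background, the change is given as a bound, "at least N-fold". The bound sets the mean of the brighter group against, on each array of the dimmer group, its own signal or the lowest signal well above background there, whichever was higher, and its range with 1 array left out follows in parentheses where that is wider than 1.5 times. Every pair of values below gives array 1 and then array 2 of its group.

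Of the spots on these 4 arrays, 62.1% to 65.2% were well above background, and the 75th percentile ran from 467 to 815 intensity units. Over the 24439 genes tested, the root mean square difference was 0.99 between the neural stem cell arrays and 0.95 between the astrocyte arrays. It was 1.80 to 1.99 between arrays of the 2 groups. The number of arrays limits the precision. Transcripts of the Y chromosome set astrocyte array 1 apart. Ddx3y, a Y-linked RNA helicase, had signals of 0.24 and 0.27 in neural stem cells, against -5.76 and 1.35 in astrocytes, and Eif2s3y, a Y-linked translation factor, 2.23 and 1.72 in neural stem cells, against -6.13 and 0.66 in astrocytes. Xist, the RNA of the inactive X chromosome, had 1.87 and 1.11 in neural stem cells, against 1.51 and -0.67 in astrocytes. The other 3 arrays thus had Y-linked signal and the first astrocyte array almost none, while Xist was detected on all 4.

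Neural stem cells are dividing precursors that can give rise to neurons, astrocytes and oligodendrocytes, and they are held in that state by Sox transcription factors and by Notch signalling between neighbouring cells. Astrocytes are differentiated glia that take up glutamate and potassium, supply lipids, and answer injury or inflammation with a reactive programme of intermediate filaments, complement, acute-phase and interferon-induced genes. The 2 cell types share many radial glial genes, since astrocytes descend from radial glia.

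The labels were first set against defining markers. Sox2, a core factor of neural stem cells that astrocytes also carry, had signals of 3.83 and 3.42 in neural stem cells, against 3.17 and 2.64 in astrocytes. Its log2 fold change was 0.72 ± 3.03 in the fit of all 6 cell arrays (adjusted p = 0.886), a wide error that comes from the glioma arrays, and 0.72 ± 0.37, adjusted p = 0.252, in a fit of the 4 arrays alone. Nes, the intermediate filament nestin of precursor cells, was not called, at 3.99 and 5.95 in neural stem cells, against 6.37 and 5.83 in astrocytes (log2 fold change -1.13 ± 0.99, adjusted p = 0.454). The orphan nuclear receptor gene Nr2e1, needed for self-renewal, stood at 2.95 and 2.06 in neural stem cells, against 2.69 and 2.37 in astrocytes, and the RNA-binding protein gene Msi1 at -0.65 and -0.55 in neural stem cells, against -0.73 and -0.49 in astrocytes. Of 20 stem cell and radial glia genes, 2 were called higher, as were 7.08% of all genes, and 0 lower, as were 8.34%, with a median log2 fold change of -0.01 against 0.21 over all genes. Those called were Fabp7, the brain fatty acid-binding protein of radial glia (8.71 and 8.40 in neural stem cells, against 6.22 and 4.75 in astrocytes; log2 fold change 3.07 ± 0.66, adjusted p = 0.0391), and Ptprz1, a receptor phosphatase of precursors (7.36 and 6.82 in neural stem cells, against 5.55 and 4.38 in astrocytes; log2 fold change 2.12 ± 0.47, adjusted p = 0.0411). Ptprz1 lost its call without either neural stem cell array or astrocyte array 2, at an adjusted p of up to 0.117. Fabp7 lost its call with any 1 of the 4 arrays left out, at an adjusted p of up to 0.131.

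Aldh1l1, a folate enzyme used to mark astrocytes, had signals of 6.54 and 4.39 in neural stem cells, against 6.75 and 5.47 in astrocytes, and the glutamate transporter gene Slc1a3 had 5.62 and 3.73 in neural stem cells, against 6.49 and 3.96 in astrocytes. Both overlapped between groups, as did Aldoc, the brain aldolase (8.03 and 6.40 in neural stem cells, against 8.45 and 6.41 in astrocytes). Gfap, the filament protein of astrocytes, was much higher in both astrocyte arrays than in neural stem cell array 2, at 1.85 and -6.07 in neural stem cells, against 6.42 and 3.91 in astrocytes, and it was not called (log2 fold change -7.27 ± 2.79, adjusted p = 0.129). Of 24 astrocyte genes tested, 1 was called higher and 2 lower in neural stem cells, with a median of -0.74. Of all genes 7.08% were called higher and 8.34% lower, so these counts are near the background and are no result about the list. The mean level of the list was 2.69 and 0.47 in neural stem cells, against 3.71 and 2.33 in astrocytes. The lower calls were Aqp4, the water channel of astrocyte end-feet (1.69 and -2.33 in neural stem cells, against 6.37 and 4.59 in astrocytes; log2 fold change -5.81 ± 1.37, adjusted p = 0.0481), and Itih3, an inter-alpha-trypsin inhibitor chain (-2.29 and -7.10 in neural stem cells, against 4.37 and 1.83 in astrocytes; log2 fold change -7.79 ± 1.82, adjusted p = 0.0469). Aqp4 and Itih3 lost their calls without neural stem cell array 2 or either astrocyte array, at an adjusted p of up to 0.17.

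The call in the opposite direction was Slc6a11, the GABA transporter GAT-3, which mature astrocytes are known to carry. Its signals were 3.42 and 1.29 in neural stem cells, against -5.79 and -7.48 in astrocytes, so that both neural stem cell arrays were far above both astrocyte arrays, where it was not well above background. It was at least 245-fold higher (117 to 513) in neural stem cells (adjusted p = 0.0063). Slc7a10, an amino acid transporter of astrocytes, was at least 16.1-fold higher (7.32 to 35.3). In a list of 28 potassium channel and glial transporter genes, 5 were higher and 1 lower (median -0.44), against 7.08% and 8.34% of all genes. The voltage-gated potassium channels Kcnd2 (3.43 and 2.55 in neural stem cells, against -0.62 and -1.70 in astrocytes; log2 fold change 4.15 ± 0.50, adjusted p = 0.00987) and Kcna2 (0.14 and -0.70 in neural stem cells, against -4.06 and -4.78 in astrocytes; log2 fold change 4.14 ± 0.49, adjusted p = 0.00935) were both higher in neural stem cells with no overlap. The inward rectifier Kcnj10 of glia stood at 4.73 and 1.38 in neural stem cells, against 7.62 and 6.92 in astrocytes and was not called (adjusted p = 0.0568). Slc7a10 lost its call with any 1 of the 4 arrays left out, at an adjusted p of up to 0.163.

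Of the 24439 genes tested, 3768 were called, or 15.4%, with 1730 (7.08%) higher and 2038 (8.34%) lower in neural stem cells. For 66.8% of genes no array lay within the range of the other group, both neural stem cell arrays being above for 39.6% and below for 27.2%. Large differences ran mostly downward: 446 genes were called at least 8-fold higher and 1228 at least 8-fold lower. These counts include signals not well above background, and 889 genes were that dim in neural stem cells, against 511 in astrocytes. The part of dim signals in the downward excess was not tested. The split between higher and lower moved with the settings. Higher genes made up 45.9% of the calls as scaled here, 36.4% with the 4 arrays alone, and 24% in the authors' deposited table, whose arrays are not scaled to each other. It was 51% with normexp correction, 44.6% with quantile scaling and 54.1% with only probes well above background on all 4 arrays. Without neural stem cell array 2 it was 35.7%, and 35.5% and 31.2% without astrocyte array 1 and 2. The median of all genes was 0.21 as scaled here and -0.20 in that table, so list medians below are read against 0.21. List counts below are likewise read against 7.08% called higher and 8.34% called lower. The lists were chosen with earlier results of these data known, so these readings are descriptions and no test. Counts without overlap are read against 39.6% above and 27.2% below. Members not well above background on either neural stem cell array passed through astrocytes alone and were bound to be lower. They numbered 4 of 34 reactive astrocyte genes, 5 of 32 interferon-stimulated genes, 4 of 29 microglia genes and 3 of 17 complement genes. The calls also rest on single arrays. With 1 of the 4 arrays left out the count was 2675 and 1276 without neural stem cell array 1 and 2, and 1579 and 1354 without astrocyte array 1 and 2. There were 747 genes called in all 4 such fits, 220 higher and 527 lower, and a gene named below without a remark on this is one of them. On 1 array of their lower group, Bmp6, Ifit3, Itih3, Msr1, Osmr and Serpina3n in neural stem cells and Elavl2, Rbfox3 and Ugt8a in astrocytes were not well above background.

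**Figure D1:**
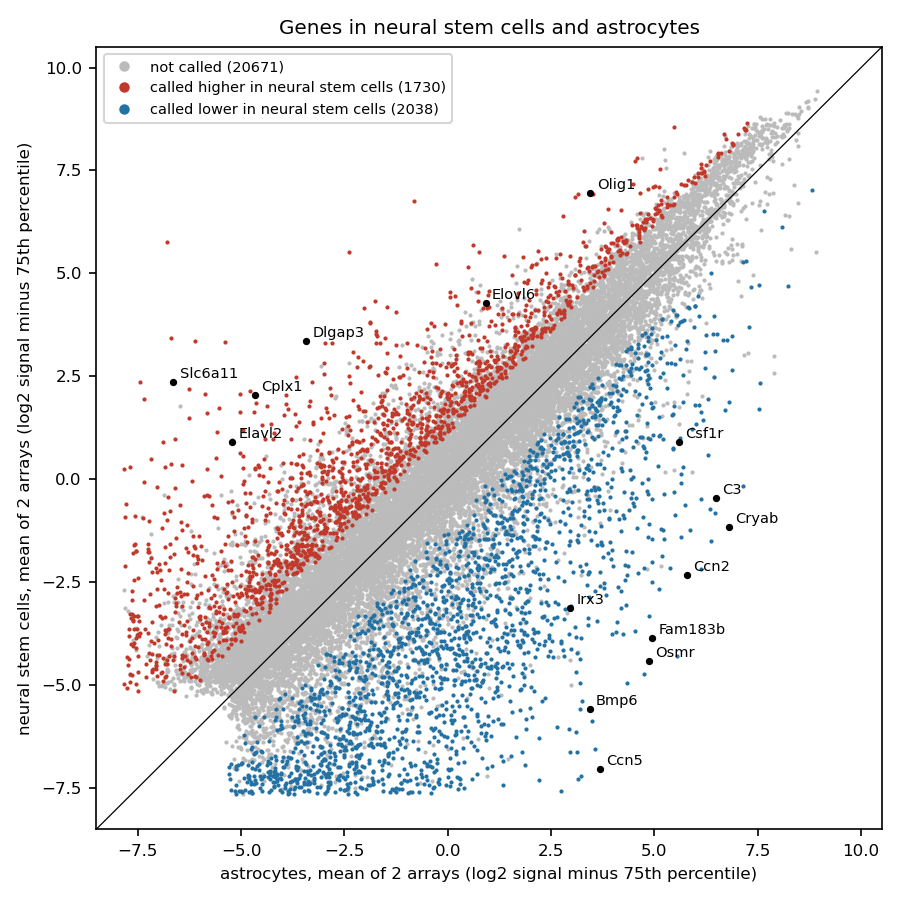
Mean normalised log2 signal of each tested gene in neural stem cells (vertical axis) and astrocytes (horizontal axis), each the mean of 2 arrays, with called genes coloured by direction and some named. Of the genes shown, 1730 were called higher and 2038 lower in neural stem cells, and the coloured points below the diagonal reach farther from it than those above.

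Among genes well above background on all 4 arrays, several with large rises in neural stem cells are known from neurons. Dlgap3, a scaffold protein of the postsynaptic density, had signals of 2.78 and 3.93 in neural stem cells, against -2.95 and -3.90 in astrocytes (log2 fold change 6.78 ± 0.53, adjusted p = 0.00481). Cplx1, a complexin of the synaptic vesicle release machinery, had 2.04 and 2.03 in neural stem cells, against -4.37 and -4.96 in astrocytes (log2 fold change 6.70 ± 0.37, adjusted p = 0.0039). Scrt1, a zinc-finger repressor of the neuronal lineage, had 2.19 and 1.05 in neural stem cells, against -5.18 and -4.86 in astrocytes (log2 fold change 6.64 ± 0.46, adjusted p = 0.00448). In all of these the lower neural stem cell array stood at least 4 log2 units above the higher astrocyte array. Unc5a, a netrin receptor, had a log2 fold change of 6.15, and Rlbp1, the retinaldehyde-binding protein of retinal and Müller glia, had 6.11. Among genes not well above background in astrocytes, Vgll2, a cofactor of TEAD factors, was at least 177-fold higher (120 to 261).

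Among genes well above background on all 4 arrays, large falls included Fam183b and others. Fam183b, a gene named here only by its symbol, had signals of -4.13 and -3.60 in neural stem cells, against 5.31 and 4.58 in astrocytes (log2 fold change -8.81 ± 0.44, adjusted p = 0.0039). Ecrg4, a secreted peptide precursor of choroid plexus and other epithelia, had -2.82 and -1.54 in neural stem cells, against 7.05 and 5.20 in astrocytes (log2 fold change -8.31 ± 0.87, adjusted p = 0.00732), and Crygs, a lens crystallin, -3.88 and -3.49 in neural stem cells, against 5.14 and 3.91 in astrocytes (log2 fold change -8.21 ± 0.47, adjusted p = 0.0039). Aldh1a1, a retinaldehyde dehydrogenase, Dysf, a membrane repair protein, and Cryab, the small heat shock protein alpha-B crystallin of reactive astrocytes, had log2 fold changes of -8.19 ± 0.73, -7.99 ± 0.67 and -7.95 ± 0.40. Both neural stem cell arrays were below both astrocyte arrays for each. Of genes not well above background in neural stem cells, Ccn5, a matricellular protein, was at least 512-fold lower, the interferon-inducible Ifi202b at least 372-fold lower, complement factor I gene Cfi at least 356-fold lower (284 to 446), and the lipopolysaccharide-binding protein gene Lbp at least 348-fold lower.

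Of 12 Sox factors, 6 were called higher in neural stem cells, against 7.08% of all genes, and 0 lower (median 1.54). Both neural stem cell arrays were above both astrocyte arrays in 9, against 39.6% of all genes. Higher calls numbered 3 and 4 without neural stem cell array 1 and 2, and 4 and 3 without astrocyte array 1 and 2. Sox11, a SoxC factor of committed precursors and young neurons, had signals of 2.56 and 3.62 in neural stem cells, against -2.31 and -2.26 in astrocytes (log2 fold change 5.38 ± 0.48, adjusted p = 0.00563). Sox12, of the same SoxC group, had -0.56 and -1.10 in neural stem cells, against -3.96 and -3.94 in astrocytes (log2 fold change 3.12 ± 0.33, adjusted p = 0.00733), and the last SoxC member Sox4 had 6.54 and 5.45 in neural stem cells, against 3.71 and 4.20 in astrocytes (log2 fold change 2.04 ± 0.46, adjusted p = 0.0421). The whole group thus stood higher, by differences that ranged from 2.04 to 5.38. Sox8, a SoxE factor of glial precursors, had 3.42 and 1.99 in neural stem cells, against -0.88 and -2.04 in astrocytes (log2 fold change 4.16 ± 0.84, adjusted p = 0.0331), whereas Sox9, the SoxE factor of astrocytes and stem cells, stood at 3.80 and 3.50 in neural stem cells, against 3.39 and 3.52 in astrocytes (log2 fold change 0.20 ± 0.43, adjusted p = 0.766). Sox4 lost its call without neural stem cell array 1 or either astrocyte array, at an adjusted p of up to 0.155. Sox8 lost its call with any 1 of the 4 arrays left out, at an adjusted p of up to 0.133.

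In the Notch pathway 4 of 20 genes were higher and 0 lower (median 0.50). Dll1, a Delta ligand that neurogenic precursors present to their neighbours, had signals of 2.35 and 1.21 in neural stem cells, against -2.85 and -3.89 in astrocytes (log2 fold change 5.15 ± 0.54, adjusted p = 0.00729). The divergent Delta family member Dll3 had 5.24 and 3.06 in neural stem cells, against -2.10 and -1.95 in astrocytes (log2 fold change 6.17 ± 1.32, adjusted p = 0.0377). Nrarp, a Notch-induced feedback inhibitor, was at least 45.3-fold higher (22.1 to 93.1). Both neural stem cell arrays were above both astrocyte arrays for all 3. Among the receptors, Notch2 had 1.41 and 0.71 in neural stem cells, against 3.00 and 2.53 in astrocytes (adjusted p = 0.0523) and Notch1 0.74 and 0.17 in neural stem cells, against 0.77 and -0.92 in astrocytes (adjusted p = 0.705), and neither was called. The nuclear partner Rbpj stood at 2.02 and 1.80 in neural stem cells, against 1.73 and 2.10 in astrocytes. Nrarp lost its call without astrocyte array 2, at an adjusted p of up to 0.061. Dll3 lost its call with any 1 of the 4 arrays left out, at an adjusted p of up to 0.13.

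The fourth Notch gene called was Hes5, the classic Notch target of neural precursors, at 7.97 and 5.56 in neural stem cells, against 1.09 and -2.72 in astrocytes (log2 fold change 7.58 ± 1.41, adjusted p = 0.0273). Its promoter is shown because it holds the core letters bound by the Rbpj complex, TGTGGGAA, which were found at 2 places on either strand within the 300 bases that run from 250 before to 50 after the start (RefSeq, GRCm38.p6, chr4:154960673-154960972, plus strand). The letters in capitals mark these matches. They occur in the window of 2.17% of 27025 genes with a promoter sequence, and in that of 1 of 17 tested Notch genes that have one. A match describes these letters only. Hes5 lost its call without either neural stem cell array or astrocyte array 2, at an adjusted p of up to 0.0852.
Hes5: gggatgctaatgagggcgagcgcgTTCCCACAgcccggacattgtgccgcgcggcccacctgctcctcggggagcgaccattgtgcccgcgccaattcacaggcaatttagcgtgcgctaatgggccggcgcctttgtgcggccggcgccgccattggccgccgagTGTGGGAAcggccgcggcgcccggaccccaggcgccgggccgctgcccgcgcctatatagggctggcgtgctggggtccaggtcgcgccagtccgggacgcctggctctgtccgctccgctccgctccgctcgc

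**Figure D2:**
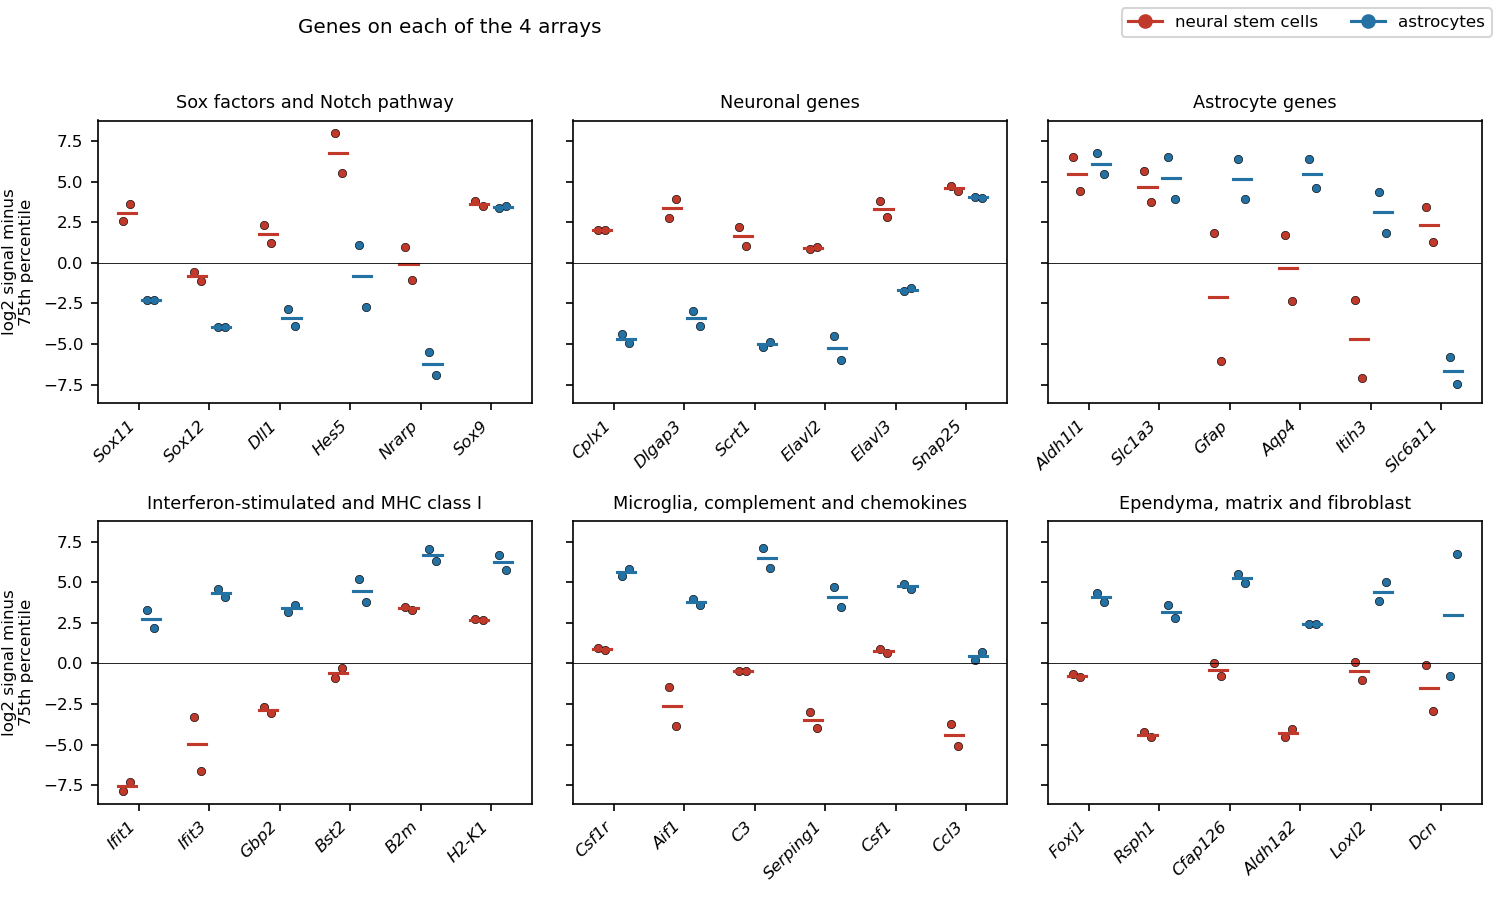
Normalised log2 signal (vertical axis) of 6 genes in each of 6 panels, with a point for each array, neural stem cells on the left and astrocytes on the right of each gene, and a bar at the mean of 2. Sox11, Dll1 and Elavl3 lie higher in neural stem cells without overlap, Sox9 and Aldh1l1 do not separate, and the interferon and complement genes lie lower.

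Several genes of young neurons and of neuronal RNA processing were higher as well. Of 18 proneural and young neuron genes, 7 were called higher and 1 lower (median 2.50). Myt1, a zinc-finger factor of neuronal differentiation, had signals of -0.28 and -1.55 in neural stem cells, against -7.76 and -7.86 in astrocytes and was at least 25.5-fold higher (16.4 to 39.6), and its relative Myt1l was at least 15-fold higher (9.03 to 24.9). Insm1, a zinc-finger factor of basal progenitors, had 3.54 and 3.09 in neural stem cells, against -1.91 and -4.05 in astrocytes (log2 fold change 6.30 ± 0.77, adjusted p = 0.00998). The lower call was St8sia2, a polysialyltransferase (-2.84 and -3.23 in neural stem cells, against -0.37 and -0.41 in astrocytes; adjusted p = 0.0275). Tubb3, the neuronal beta-tubulin, was not called, at 2.48 and 0.69 in neural stem cells, against 1.51 and 1.19 in astrocytes. Higher calls numbered 5 and 4 without neural stem cell array 1 and 2, and 4 and 4 without astrocyte array 1 and 2. Myt1l lost its call without astrocyte array 1, at an adjusted p of up to 0.053. Insm1 lost its call without neural stem cell array 2, at an adjusted p of up to 0.0558. St8sia2 lost its call with any 1 of the 4 arrays left out, at an adjusted p of up to 0.119.

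RNA-binding proteins of the fetal brain had 11 of 26 members higher and 0 lower (median 1.40). The neuronal Hu proteins, which stabilise messages with AU-rich elements, were among those called. Elavl2 had signals of 0.86 and 0.95 in neural stem cells, against -4.48 and -5.96 in astrocytes (log2 fold change 6.12 ± 0.52, adjusted p = 0.00525) and Elavl3 3.83 and 2.80 in neural stem cells, against -1.76 and -1.53 in astrocytes (log2 fold change 4.96 ± 0.43, adjusted p = 0.00529), each with the groups well apart. The let-7 inhibitor Lin28b, known from early precursors, was at least 7.32-fold higher (2.96 to 18.1). Of the IGF2 messenger-binding proteins, Igf2bp1 had -1.46 and 0.14 in neural stem cells, against -5.11 and -3.88 in astrocytes (log2 fold change 3.84 ± 0.67, adjusted p = 0.0232) and Igf2bp3 2.25 and 2.18 in neural stem cells, against -3.84 and -1.84 in astrocytes (log2 fold change 5.05 ± 1.01, adjusted p = 0.0323). Ptbp2, the neuronal splicing repressor, had a log2 fold change of 2.84 ± 0.49, while its non-neuronal counterpart Ptbp1 was not called (adjusted p = 0.836). Higher calls in this list numbered 5 and 3 without neural stem cell array 1 and 2, and 4 and 3 without astrocyte array 1 and 2. Lin28b lost its call without either astrocyte array, at an adjusted p of up to 0.0912. Igf2bp1 lost its call without neural stem cell array 2 or either astrocyte array, at an adjusted p of up to 0.0887. Ptbp2 lost its call without either neural stem cell array or astrocyte array 2, at an adjusted p of up to 0.0965. Igf2bp3 lost its call with any 1 of the 4 arrays left out, at an adjusted p of up to 0.129.

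Of 32 synaptic genes, 5 were higher and 2 lower (median 0.57). Higher calls numbered 1 and 2 without neural stem cell array 1 and 2, and 3 and 1 without astrocyte array 1 and 2. Rbfox3, the antigen NeuN of mature neurons, had signals of 1.94 and 1.78 in neural stem cells, against -3.13 and -6.13 in astrocytes (log2 fold change 6.48 ± 0.97, adjusted p = 0.0159). Gad2, a GABA synthesis enzyme, was at least 5.66-fold higher (4.1 to 7.82). In contrast Gria3, an AMPA receptor subunit, was lower at -1.08 and -0.50 in neural stem cells, against 1.13 and 1.97 in astrocytes. The general synaptic gene Snap25 was not called, at 4.75 and 4.45 in neural stem cells, against 4.08 and 3.97 in astrocytes. Rbfox3 lost its call without either neural stem cell array, at an adjusted p of up to 0.0818. Gad2 lost its call without either astrocyte array, at an adjusted p of up to 0.0709. Gria3 lost its call with any 1 of the 4 arrays left out, at an adjusted p of up to 0.127.

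Genes of oligodendrocyte precursors were higher in 9 of 19, lower in 0 (median 2.90). Olig2, the bHLH factor that specifies the lineage, had signals of 4.32 and 4.76 in neural stem cells, against 0.22 and -0.13 in astrocytes (log2 fold change 4.50 ± 0.35, adjusted p = 0.00481), and Olig1 had 6.83 and 7.09 in neural stem cells, against 3.60 and 3.31 in astrocytes (log2 fold change 3.51 ± 0.30, adjusted p = 0.00527). Pcdh15, a protocadherin of precursor cells, had 2.96 and 0.91 in neural stem cells, against -7.29 and -7.38 in astrocytes (adjusted p = 0.0048). The probe tested was not well above background on either astrocyte array. Another probe of Pcdh15 was well above background in astrocytes, so no bound is given and absence there is not shown. The receptor gene Pdgfra, which defines the precursors, had 4.10 and 3.49 in neural stem cells, against 3.23 and 1.20 in astrocytes and was not called (adjusted p = 0.174). Of 12 genes of myelinating cells, 1 was higher, the galactosyltransferase gene Ugt8a (0.55 and -1.31 in neural stem cells, against -5.23 and -6.40 in astrocytes; adjusted p = 0.015), and 1 lower, and the myelin gene Mbp was not called (1.62 and -1.33 in neural stem cells, against 1.14 and -0.00 in astrocytes). Higher calls in the precursor list numbered 6 and 8 without neural stem cell array 1 and 2, and 8 and 6 without astrocyte array 1 and 2. Ugt8a lost its call without astrocyte array 2, at an adjusted p of up to 0.0689.

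**Figure D3:**
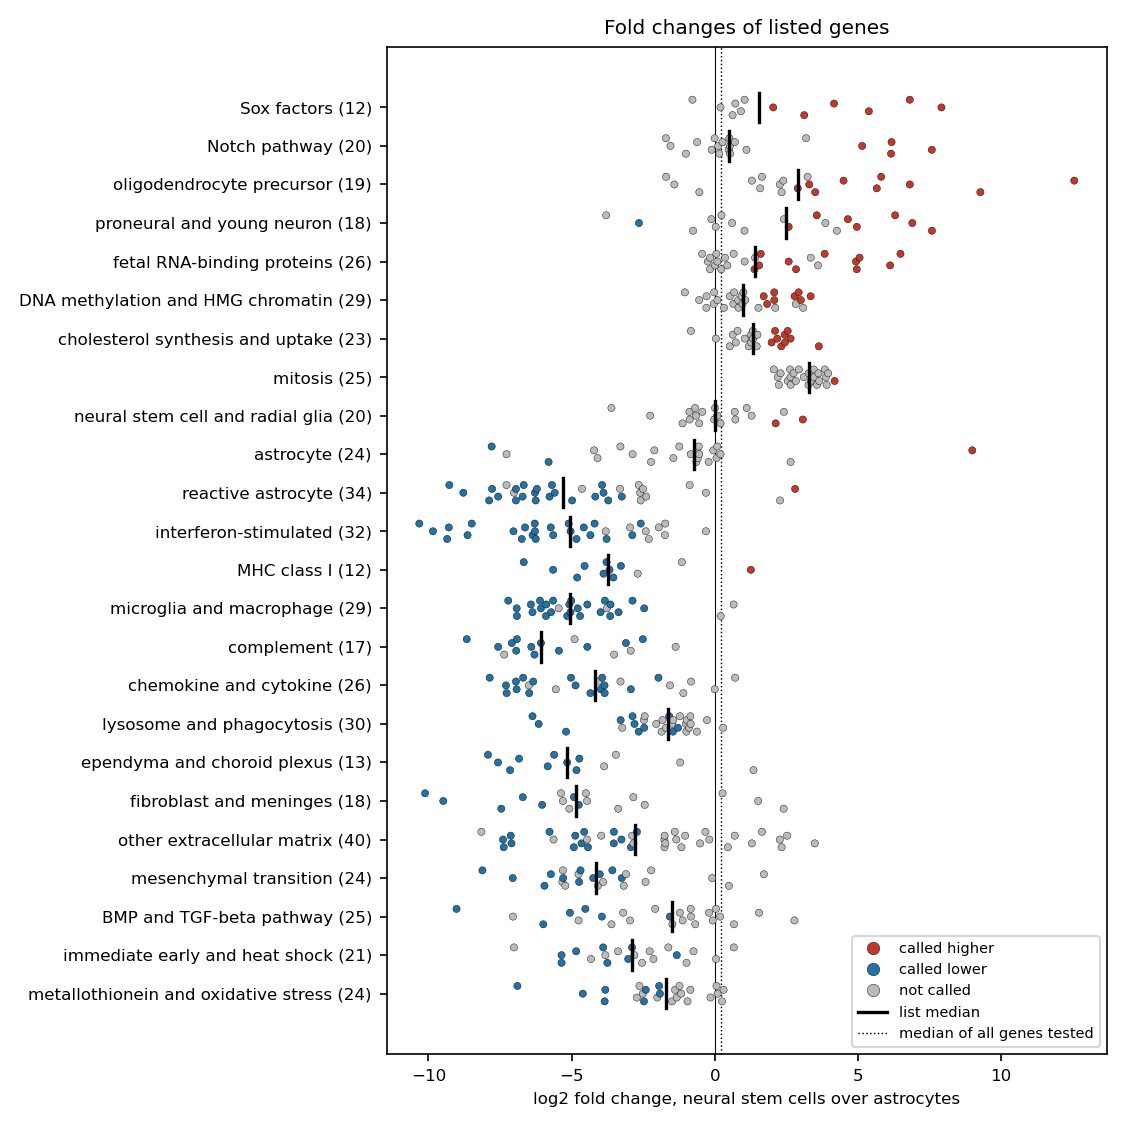
Log2 fold change of neural stem cells over astrocytes (horizontal axis) for each tested gene of the lists shown. Each list has its number of genes in parentheses and a bar at its median, and a dotted line marks the median of all genes, 0.21. Interferon, microglia and complement genes lie mostly below -2, and most mitosis genes lie at 2 to 4 without a call.

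Reactive astrocyte genes were lower in neural stem cells in 21 of 34, against 8.34% of all genes, and higher in 1. Their median was -5.29, or -4.41 with values under the lowest signal well above background raised to it. Osmr, the oncostatin M receptor that drives the reactive response, had signals of -2.68 and -6.14 in neural stem cells, against 5.18 and 4.54 in astrocytes (log2 fold change -9.27 ± 1.11, adjusted p = 0.00956). The copper ferroxidase gene Cp had -3.32 and -2.01 in neural stem cells, against 5.25 and 4.97 in astrocytes (log2 fold change -7.78 ± 0.74, adjusted p = 0.00617), and Serping1, the C1 inhibitor, -2.99 and -3.96 in neural stem cells, against 4.68 and 3.51 in astrocytes (log2 fold change -7.57 ± 0.55, adjusted p = 0.00469). No array of 1 group reached into the range of the other for these. The metalloreductase gene Steap4 was at least 11.3-fold lower (6.03 to 21.1). Serpina3n, a protease inhibitor used to mark reactive astrocytes, had -3.85 and -7.31 in neural stem cells, against 3.94 and 2.46 in astrocytes (log2 fold change -8.78 ± 1.36, adjusted p = 0.0176). Vim, the filament protein vimentin, was high in both groups and not called (6.23 and 7.09 in neural stem cells, against 7.65 and 7.41 in astrocytes). The member called higher was B3gnt5, a glycosyltransferase (1.50 and 1.35 in neural stem cells, against -1.09 and -1.67 in astrocytes; adjusted p = 0.0232). Lower calls numbered 14 and 8 without neural stem cell array 1 and 2, and 15 and 15 without astrocyte array 1 and 2. Serpina3n lost its call without neural stem cell array 2 or either astrocyte array, at an adjusted p of up to 0.0786. B3gnt5 lost its call with any 1 of the 4 arrays left out, at an adjusted p of up to 0.102. Microglia and macrophage genes moved the same way, with mean levels of -1.60 and -3.08 in neural stem cells, against 1.97 and 2.70 in astrocytes, and their part in this result was not tested.

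Interferon-stimulated genes, which cells switch on behind the interferon receptor, were lower in 24 of 32 and higher in 0 (median -5.07, or -4.72 with low values raised). Both neural stem cell arrays were below both astrocyte arrays in 30, against 27.2% of all genes. Ifit1, which binds viral RNA that lacks cap methylation, had signals of -7.86 and -7.28 in neural stem cells, against 3.31 and 2.19 in astrocytes. It was at least 267-fold lower (181 to 394), at an adjusted p of 0.00391. Its relative Ifit3 had -3.29 and -6.61 in neural stem cells, against 4.61 and 4.07 in astrocytes (log2 fold change -9.29 ± 1.06, adjusted p = 0.00871). The guanylate-binding GTPase gene Gbp2 had -2.71 and -3.03 in neural stem cells, against 3.20 and 3.62 in astrocytes (log2 fold change -6.28 ± 0.40, adjusted p = 0.00403), and Bst2, tetherin, which holds budding virus at the membrane, -0.87 and -0.27 in neural stem cells, against 5.17 and 3.77 in astrocytes (log2 fold change -5.04 ± 0.57, adjusted p = 0.00838). The astrocyte values of all 4 lay far above those of neural stem cells on both arrays. Ifitm3, which blocks virus entry, and the RNA sensor Zbp1 had log2 fold changes of -6.63 ± 0.40 and -4.34 ± 0.32. Irf9, a transducer of the pathway, was lower at 1.35 and 0.74 in neural stem cells, against 3.98 and 3.28 in astrocytes (log2 fold change -2.59 ± 0.42, adjusted p = 0.0192). Lower calls numbered 17 and 10 without neural stem cell array 1 and 2, and 16 and 24 without astrocyte array 1 and 2. Irf9 lost its call without neural stem cell array 2 or either astrocyte array, at an adjusted p of up to 0.0866. The mean level of the list was -3.14 and -3.52 in neural stem cells, against 2.57 and 1.24 in astrocytes. Microglia genes moved the same way, at the levels given for reactive genes, and their part in this result was not tested.

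The promoters of the 4 genes described in full are shown because each holds GAAA, any 2 bases, and GAAA again, a form of the interferon-stimulated response element, on either strand of the 300-base window (RefSeq, GRCm38.p6). Capitals mark every match, and a run of capitals can hold overlapping matches. This pattern was found in the window of 1079 of 27025 genes (3.99%), and in 14 of the 23 interferon-stimulated genes tested that have a promoter sequence, 12 of them among the 18 called lower. The windows are chr19:34640639-34640938, plus strand for Ifit1, chr19:34583279-34583578, plus strand for Ifit3, chr3:142620413-142620712, plus strand for Gbp2 and chr8:71537423-71537722, minus strand for Bst2, each written on the strand of its gene.
Ifit1: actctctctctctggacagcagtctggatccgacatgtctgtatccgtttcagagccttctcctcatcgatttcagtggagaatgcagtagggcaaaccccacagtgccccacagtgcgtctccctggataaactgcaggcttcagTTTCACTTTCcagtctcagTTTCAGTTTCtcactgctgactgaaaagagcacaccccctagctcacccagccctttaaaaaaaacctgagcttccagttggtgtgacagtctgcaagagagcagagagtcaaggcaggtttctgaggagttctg
Ifit3: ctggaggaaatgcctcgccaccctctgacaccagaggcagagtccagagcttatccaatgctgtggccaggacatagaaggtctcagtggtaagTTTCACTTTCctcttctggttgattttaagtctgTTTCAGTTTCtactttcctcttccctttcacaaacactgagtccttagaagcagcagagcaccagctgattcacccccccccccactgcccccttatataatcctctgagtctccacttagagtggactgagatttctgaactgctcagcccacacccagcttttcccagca
Gbp2: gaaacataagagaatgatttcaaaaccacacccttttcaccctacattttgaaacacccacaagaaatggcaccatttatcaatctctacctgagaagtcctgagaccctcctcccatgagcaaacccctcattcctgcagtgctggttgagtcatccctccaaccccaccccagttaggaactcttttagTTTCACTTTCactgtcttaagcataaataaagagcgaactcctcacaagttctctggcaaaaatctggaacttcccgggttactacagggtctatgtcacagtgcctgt
Bst2: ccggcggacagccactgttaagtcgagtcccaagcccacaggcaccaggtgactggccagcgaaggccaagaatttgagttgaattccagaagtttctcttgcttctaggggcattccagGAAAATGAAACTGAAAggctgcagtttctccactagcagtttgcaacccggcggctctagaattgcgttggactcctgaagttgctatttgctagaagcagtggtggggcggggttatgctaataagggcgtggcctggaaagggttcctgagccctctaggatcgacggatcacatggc

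Antigen presentation by MHC class I, which shows peptides to cytotoxic T cells, was lower in 9 of 12 genes and higher in 1 (median -3.73). B2m, the invariant light chain, had signals of 3.50 and 3.28 in neural stem cells, against 7.04 and 6.30 in astrocytes (log2 fold change -3.28 ± 0.35, adjusted p = 0.00738). The classical heavy chains H2-K1 (2.72 and 2.66 in neural stem cells, against 6.69 and 5.78 in astrocytes; log2 fold change -3.54 ± 0.39, adjusted p = 0.00797) and H2-D1 (1.53 and 1.57 in neural stem cells, against 5.89 and 4.98 in astrocytes; log2 fold change -3.89 ± 0.37, adjusted p = 0.0063) were lower by similar amounts. The log2 fold changes of the peptide transporter subunits Tap1 and Tap2 were -4.55 ± 0.36 and -4.81 ± 0.51, and that of the immunoproteasome subunit Psmb9 was -5.65 ± 0.61. Light chain, heavy chain, transporter and immunoproteasome thus stood lower together. The exception was the nonclassical gene H2-Q4, which was higher at 7.28 and 7.62 in neural stem cells, against 6.24 and 6.15 in astrocytes (log2 fold change 1.26 ± 0.27, adjusted p = 0.0398). H2-Q4 lost its call with any 1 of the 4 arrays left out, at an adjusted p of up to 0.144. Microglia genes were lower in the same arrays, at the mean levels given beside the reactive astrocyte genes, and their part in the MHC result was not tested. The response element pattern was present in the promoter window of 2 of the 10 class I genes with a sequence, B2m and H2-T23. Class II genes, carried by professional antigen-presenting cells, were low in both groups, and 1 of 6 was called, H2-DMa (-2.01 and -2.19 in neural stem cells, against 0.30 and -0.39 in astrocytes; adjusted p = 0.0204). H2-DMa lost its call without either neural stem cell array or astrocyte array 1, at an adjusted p of up to 0.0891.

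Microglia and macrophage genes were lower in neural stem cells in 25 of 29 and higher in 0 (median -5.04, or -4.71 with low values raised). Csf1r, the receptor that keeps microglia alive, had signals of 0.95 and 0.84 in neural stem cells, against 5.39 and 5.82 in astrocytes (log2 fold change -4.71 ± 0.31, adjusted p = 0.00408). Aif1, the microglial calcium-binding protein Iba1, had -1.45 and -3.83 in neural stem cells, against 3.94 and 3.61 in astrocytes (log2 fold change -6.42 ± 0.78, adjusted p = 0.0099), and Irf8, a factor of macrophage development, -1.51 and -1.87 in neural stem cells, against 2.01 and 1.91 in astrocytes (log2 fold change -3.65 ± 0.30, adjusted p = 0.00495). Astrocyte values of Csf1r and Aif1 were several log2 units above those of neural stem cells on both arrays. Spi1, the myeloid master factor PU.1, was at least 3.74-fold lower (2.68 to 5.23), Ptprc, the leukocyte antigen CD45, fell by 3.36 ± 0.35 on the log2 scale, and P2ry13, a nucleotide receptor of microglia, was at least 30-fold lower (22.2 to 40.5). Cx3cr1, the fractalkine receptor, had -0.52 and -3.69 in neural stem cells, against 3.65 and 4.35 in astrocytes (log2 fold change -6.10 ± 1.06, adjusted p = 0.023), with neural stem cell array 1 the higher of its group. The integrin gene Itgam (5.08 and 4.62 in neural stem cells, against 4.51 and 4.78 in astrocytes) and the lectin gene Siglech (6.79 and 7.08 in neural stem cells, against 6.19 and 6.36 in astrocytes) were not called. Fewer cells of this type in a sample and less RNA per cell cannot be told apart here or in the other lists of cell type markers. Lower calls numbered 24 and 19 without neural stem cell array 1 and 2, and 14 and 9 without astrocyte array 1 and 2. Of lymphocyte markers, 0 of 6 were called by limma and 2 had an unadjusted p under 0.05. Cx3cr1 lost its call without either astrocyte array, at an adjusted p of up to 0.101.

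Complement was lower in 12 of 17 genes (median -6.07). Both neural stem cell arrays were below both astrocyte arrays in all 17, against 27.2% of all genes. C3, the central component, had signals of -0.47 and -0.44 in neural stem cells, against 7.09 and 5.88 in astrocytes (log2 fold change -6.94 ± 0.45, adjusted p = 0.00416). C1ra, a protease of the C1 complex, was at least 246-fold lower (200 to 304), C1qb, a chain of C1q that microglia make, fell by 4.45 ± 0.52 on the log2 scale, and the regulator Cd59a had -3.73 and -4.00 in neural stem cells, against 3.37 and 3.08 in astrocytes (log2 fold change -7.09 ± 1.33, adjusted p = 0.0282). Clusterin, Clu, had 5.27 and 0.70 in neural stem cells, against 8.41 and 7.36 in astrocytes and was not called (adjusted p = 0.0801). Lower calls numbered 9 and 6 without neural stem cell array 1 and 2, and 6 and 5 without astrocyte array 1 and 2. Cd59a lost its call with any 1 of the 4 arrays left out, at an adjusted p of up to 0.122.

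Of 26 chemokine and cytokine genes, 17 were lower and 0 higher (median -4.20, or -3.95 with low values raised). Lower calls numbered 13 and 13 without neural stem cell array 1 and 2, and 10 and 12 without astrocyte array 1 and 2. Csf1, the ligand of the receptor Csf1r, had signals of 0.89 and 0.63 in neural stem cells, against 4.88 and 4.61 in astrocytes (log2 fold change -3.98 ± 0.30, adjusted p = 0.00481), and Cxcl16 had -4.12 and -4.20 in neural stem cells, against -0.60 and -0.02 in astrocytes (log2 fold change -3.85 ± 0.31, adjusted p = 0.00482). The astrocyte arrays were close to each other for both and far above neural stem cells. Ccl12, a monocyte chemokine, was at least 101-fold lower (56.7 to 181), Cxcl5, a neutrophil chemokine, at least 64.5-fold lower (35.1 to 118), and the inflammatory cytokine gene Tnf at least 23.2-fold lower. Il1b, interleukin 1 beta, was at least 6.29-fold lower. In the Toll-like receptor and NF-kB list, 11 of 21 were lower (median -2.42), among them the bacterial lipoprotein receptors Tlr2 (-3.16 and -4.41 in neural stem cells, against 1.76 and 1.39 in astrocytes; log2 fold change -5.36 ± 0.52, adjusted p = 0.0064) and Tlr6, at least 41.5-fold lower. Of the 21, 4 were bound to be lower in the same way, and the median was -1.99 with only probes well above background on all 4 arrays. The NF-kB subunit gene Nfkb1 was not called, at -2.13 and -1.16 in neural stem cells, against -1.06 and -0.47 in astrocytes. Lower calls in the Toll-like list numbered 4 and 2 without neural stem cell array 1 and 2, and 4 and 3 without astrocyte array 1 and 2. Microglia genes moved with both lists, at the mean levels given for reactive genes, and their part was not tested.

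Lysosomal and phagocytic genes were lower in 11 of 30 by smaller steps (median -1.65). Msr1, a scavenger receptor of macrophages, had signals of -5.56 and -6.01 in neural stem cells, against 0.43 and 0.31 in astrocytes (log2 fold change -6.15 ± 0.30, adjusted p = 0.0039). Of the cathepsins, which digest protein in lysosomes, Ctsd had 5.18 and 4.26 in neural stem cells, against 7.35 and 7.69 in astrocytes (log2 fold change -2.80 ± 0.45, adjusted p = 0.0187). The general lysosomal membrane gene Lamp1, at 7.02 and 6.82 in neural stem cells, against 7.96 and 7.59 in astrocytes, was not called (adjusted p = 0.096). Lower calls numbered 10 and 3 without neural stem cell array 1 and 2, and 4 and 2 without astrocyte array 1 and 2. Ctsd lost its call without neural stem cell array 2 or either astrocyte array, at an adjusted p of up to 0.0873.

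Genes of ciliated ependymal cells, which line the ventricles, and of choroid plexus were lower in 9 of 13 (median -5.16). The mean level of the list was almost equal within each group, -3.86 and -3.82 in neural stem cells, against 0.99 and 0.99 in astrocytes. Rsph1, a radial spoke protein of motile cilia, had signals of -4.24 and -4.51 in neural stem cells, against 3.58 and 2.81 in astrocytes (log2 fold change -7.57 ± 0.45, adjusted p = 0.0039). Cfap126, which positions basal bodies, had 0.01 and -0.75 in neural stem cells, against 5.53 and 4.96 in astrocytes (log2 fold change -5.61 ± 0.39, adjusted p = 0.00448), and Spag6l, of the central pair of the cilium, was at least 125-fold lower (79.6 to 197). Foxj1, the master factor of motile cilia, had -0.66 and -0.86 in neural stem cells, against 4.36 and 3.78 in astrocytes (log2 fold change -4.83 ± 0.56, adjusted p = 0.00883). Folr1, a folate receptor of choroid plexus, fell by 5.84 ± 0.60 on the log2 scale, but Ttr, transthyretin, its most abundant product, was low on 3 of 4 arrays (-4.32 and -5.68 in neural stem cells, against -3.48 and 0.39 in astrocytes) and not called. Lower calls numbered 6 and 4 without neural stem cell array 1 and 2, and 8 and 8 without astrocyte array 1 and 2. Foxj1 lost its call without neural stem cell array 2, at an adjusted p of up to 0.0553.

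Fibroblast and meningeal genes differed between the astrocyte arrays themselves. Their mean level was -1.75 and -2.77 in neural stem cells, against 0.53 and 3.69 in astrocytes. Col1a2, a chain of type I collagen, had signals of 0.64 and -1.23 in neural stem cells, against -0.78 and 6.94 in astrocytes, Dcn, decorin, -0.10 and -2.90 in neural stem cells, against -0.79 and 6.71 in astrocytes, and Lum, lumican, -3.93 and -5.11 in neural stem cells, against -3.87 and 3.83 in astrocytes. Astrocyte array 2 alone was high for these, and none was called (adjusted p = 0.369, 0.26 and 0.3). Other members were high on both astrocyte arrays. Aldh1a2, a retinoic acid enzyme of the meninges, had -4.54 and -4.03 in neural stem cells, against 2.42 and 2.42 in astrocytes (log2 fold change -6.71 ± 0.59, adjusted p = 0.00532), and Foxc1, a forkhead factor of meningeal development, -3.19 and -3.87 in neural stem cells, against 1.42 and 3.59 in astrocytes (log2 fold change -6.03 ± 0.83, adjusted p = 0.0133). In all, 7 of 18 were lower and 0 higher (median -4.84), and lower calls numbered 6 and 2 without neural stem cell array 1 and 2, and 5 and 3 without astrocyte array 1 and 2. Foxc1 lost its call without neural stem cell array 2, at an adjusted p of up to 0.0762.

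**Figure D4:**
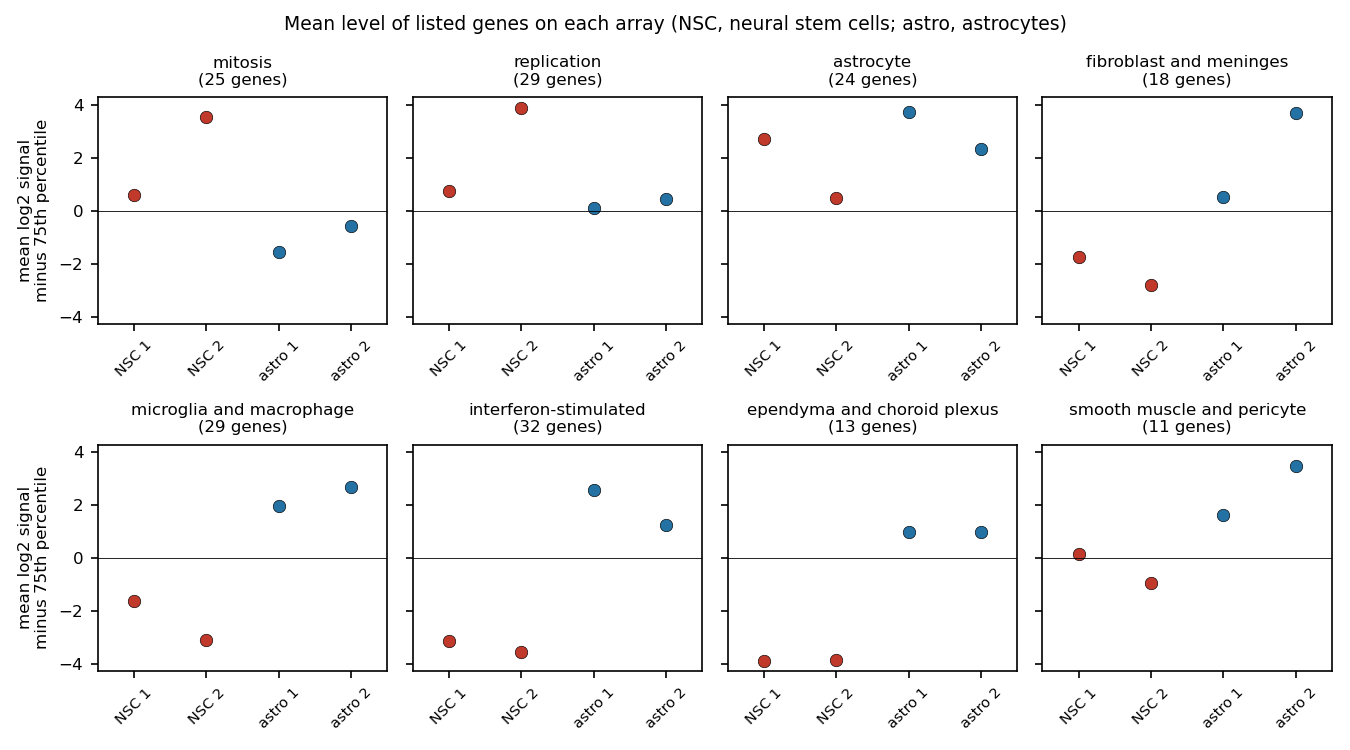
Mean normalised log2 signal of the tested members of each list on each array (points), neural stem cells on the left and astrocytes on the right. The microglia, interferon and ependyma lists lie lower on both neural stem cell arrays, the fibroblast list is highest on astrocyte array 2, and the mitosis list is high on neural stem cell array 2.

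Of 23 collagen chains, 5 were lower (median -2.65). The chains of type VIII collagen, a short-chain form of basement membranes, were among them, with Col8a1 at -4.75 and -3.38 in neural stem cells, against 1.69 and 1.78 in astrocytes (log2 fold change -5.81 ± 0.49, adjusted p = 0.00525) and Col8a2 at least 41.9-fold lower (29.3 to 59.9). Of 40 other matrix genes 15 were lower and 0 higher (median -2.78). Loxl2, a lysyl oxidase that cross-links collagen, averaged -0.45 in neural stem cells, against 4.42 in astrocytes (log2 fold change -4.87 ± 0.55, adjusted p = 0.00846). Thbs1, thrombospondin 1, which astrocytes secrete to promote synapses, had signals of -3.64 and -2.49 in neural stem cells, against 4.36 and 4.26 in astrocytes (log2 fold change -7.37 ± 1.09, adjusted p = 0.0157). The brain proteoglycan Bcan, brevican, was not called, at 7.96 and 7.15 in neural stem cells, against 6.06 and 4.51 in astrocytes (adjusted p = 0.0623). Lower calls for the collagens numbered 3 and 2 without neural stem cell array 1 and 2, and 8 and 3 without astrocyte array 1 and 2. For the other matrix genes they numbered 7 and 4 without neural stem cell array 1 and 2, and 9 and 6 without astrocyte array 1 and 2. Thbs1 lost its call with any 1 of the 4 arrays left out, at an adjusted p of up to 0.0707.

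Mesenchymal transition genes were lower in 11 of 24 and higher in 0 (median -4.16). Ccn2, a matricellular target of YAP and TGF-beta, had signals of -2.90 and -1.75 in neural stem cells, against 5.17 and 6.41 in astrocytes (log2 fold change -8.12 ± 0.80, adjusted p = 0.0066). Anxa2, a membrane-binding annexin, had 3.55 and 3.86 in neural stem cells, against 6.97 and 7.60 in astrocytes (log2 fold change -3.58 ± 0.34, adjusted p = 0.00617), and the transcription factor gene Runx1 -5.14 and -4.54 in neural stem cells, against 0.31 and -0.50 in astrocytes (log2 fold change -4.74 ± 0.40, adjusted p = 0.00522). Both astrocyte arrays were high for each of these. Lower calls numbered 5 and 5 without neural stem cell array 1 and 2, and 6 and 4 without astrocyte array 1 and 2. Of smooth muscle and pericyte genes, 3 of 11 were lower, such as the calponin gene Cnn1 (-2.89 and -3.35 in neural stem cells, against 3.16 and 5.20 in astrocytes; log2 fold change -7.30 ± 0.75, adjusted p = 0.00704), and 1 higher, Cspg4, which oligodendrocyte precursors also carry (adjusted p = 0.0354). Myh11, Des, Lmod1, Actg2, Rgs5, Kcnj8 and Abcc9 did not pass the background filter. The list's mean level was 0.17 and -0.92 in neural stem cells, against 1.64 and 3.46 in astrocytes. Its median, -3.71, was -4.52 without astrocyte array 1 and -1.86 without astrocyte array 2. Of endothelial genes 3 of 11 were lower, among them the anion transporter gene Slco1a4 (-4.47 and -4.25 in neural stem cells, against 0.89 and 1.21 in astrocytes). The defining gene Pecam1 was not called (-2.32 and -2.01 in neural stem cells, against -2.75 and -2.23 in astrocytes), and Cdh5 and Cldn5 were not well above background. Cspg4 lost its call without either neural stem cell array or astrocyte array 1, at an adjusted p of up to 0.14.

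In the BMP and TGF-beta list, 6 of 25 were lower and 0 higher (median -1.48). The ligand Bmp6 had signals of -4.27 and -6.90 in neural stem cells, against 3.27 and 3.60 in astrocytes (log2 fold change -9.02 ± 0.85, adjusted p = 0.00617), Tgfbi, a matrix protein induced by TGF-beta, -2.33 and -2.44 in neural stem cells, against 1.84 and 3.50 in astrocytes (log2 fold change -5.06 ± 0.59, adjusted p = 0.00903), and the target Id3 4.18 and 3.51 in neural stem cells, against 5.58 and 5.25 in astrocytes (log2 fold change -1.57 ± 0.36, adjusted p = 0.045). The ligand Bmp4 was uneven within neural stem cells, at 3.96 and -1.13 in neural stem cells, against 2.08 and 3.71 in astrocytes, and the receptor gene Bmpr1a was not called (3.05 and 2.78 in neural stem cells, against 3.49 and 2.74 in astrocytes). Lower calls numbered 4 and 2 without neural stem cell array 1 and 2, and 4 and 2 without astrocyte array 1 and 2. In the Hedgehog list 1 of 14 was lower, Gli1, the transcription factor and readout of the pathway, at -3.61 and -4.44 in neural stem cells, against 1.52 and 1.87 in astrocytes (log2 fold change -5.72 ± 0.44, adjusted p = 0.00481). Ptch1, the Hedgehog receptor and itself a target, was not called, at -0.48 and -0.37 in neural stem cells, against -0.60 and -1.10 in astrocytes. The Hedgehog count was near the 8.34% of all genes called lower and is no result about that list. Tgfbi lost its call without neural stem cell array 2, at an adjusted p of up to 0.056. Id3 lost its call with any 1 of the 4 arrays left out, at an adjusted p of up to 0.161.

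In the Wnt list 2 of 26 were higher and 2 lower (median -0.89), against 7.08% and 8.34% of all genes, so its counts are near the background and are no result about the list. Lgr5, an R-spondin receptor of stem cells, had signals of -2.79 and -1.23 in neural stem cells, against -7.67 and -6.77 in astrocytes and was at least 11.9-fold higher (6.94 to 20.4), and the ligand Wnt7a had 1.36 and 1.63 in neural stem cells, against -1.47 and -1.88 in astrocytes (log2 fold change 3.17 ± 0.74, adjusted p = 0.0471). Wnt5b, a ligand of the non-canonical branch, was lower at -0.32 and -0.15 in neural stem cells, against 3.40 and 2.46 in astrocytes (log2 fold change -3.17 ± 0.46, adjusted p = 0.0154). Of growth factor genes of the FGF and EGF families, 2 of 24 were higher, the ETS factors downstream of FGF receptors Etv1 (5.97 and 5.07 in neural stem cells, against 0.20 and 1.32 in astrocytes; log2 fold change 4.76 ± 0.56, adjusted p = 0.0093) and Etv4 (4.16 and 4.69 in neural stem cells, against 1.23 and 2.13 in astrocytes; log2 fold change 2.75 ± 0.44, adjusted p = 0.0188). The EGF receptor ligand Hbegf was lower (1.22 and 1.05 in neural stem cells, against 3.93 and 4.20 in astrocytes; log2 fold change -2.93 ± 0.32, adjusted p = 0.00796). The receptor gene Egfr was not called, at 3.44 and 4.68 in neural stem cells, against 2.24 and 3.31 in astrocytes. The counts of the FGF and EGF list were also near the shares of all genes and are no result about it. Of the insulin-like growth factor system 2 of 13 were lower, the binding proteins Igfbp5 (3.25 and 0.66 in neural stem cells, against 6.69 and 5.92 in astrocytes; adjusted p = 0.0474) and Igfbp7 (adjusted p = 0.0192). Etv4 lost its call without neural stem cell array 2 or astrocyte array 1, at an adjusted p of up to 0.0896. Igfbp7 lost its call without neural stem cell array 1 or astrocyte array 2, at an adjusted p of up to 0.0741. Wnt5b lost its call without either neural stem cell array or astrocyte array 1, at an adjusted p of up to 0.0726. Igfbp5 lost its call without neural stem cell array 2 or either astrocyte array, at an adjusted p of up to 0.165. Wnt7a lost its call with any 1 of the 4 arrays left out, at an adjusted p of up to 0.171.

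All 25 mitosis genes tested had both neural stem cell arrays above both astrocyte arrays, against 39.6% of all genes, and their median was 3.27, but 1 of 25 was called. Their mean level was 0.60 and 3.53 in neural stem cells, against -1.55 and -0.59 in astrocytes, so that the second neural stem cell array stood well above the first. Cenpf, a kinetochore protein, was at least 7.5-fold higher (3.38 to 16.6), while Ccnb1, the mitotic cyclin B1, had 1.61 and 4.81 in neural stem cells, against -0.98 and -0.28 in astrocytes and was not called (adjusted p = 0.0641). Of 29 replication genes, 0 were called by limma, 4 having an unadjusted p under 0.05 (median 1.97; mean levels 0.75 and 3.89 in neural stem cells, against 0.12 and 0.43 in astrocytes), and Mcm5, a helicase subunit, had 0.70 and 4.61 in neural stem cells, against -0.42 and -0.34 in astrocytes (adjusted p = 0.143). Higher calls for mitosis numbered 24 without neural stem cell array 1 and 0 without neural stem cell array 2 or either astrocyte array. For replication they numbered 29 and 0 in the same fits. Cenpf lost its call without neural stem cell array 2 or either astrocyte array, at an adjusted p of up to 0.144.

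Among regulators of the G1 phase, 4 of 26 were higher and 3 lower (median 0.86). Higher calls numbered 7 and 1 without neural stem cell array 1 and 2, and 2 and 2 without astrocyte array 1 and 2. Myc, the growth regulator, had signals of 2.40 and 2.64 in neural stem cells, against -0.28 and 0.25 in astrocytes (log2 fold change 2.54 ± 0.32, adjusted p = 0.0107). Cdk4, a G1 kinase, was also higher (log2 fold change 1.81 ± 0.30, adjusted p = 0.0208). The inhibitors Cdkn2a (-1.65 and 1.00 in neural stem cells, against 4.34 and 4.59 in astrocytes; log2 fold change -4.79 ± 0.85, adjusted p = 0.0248) and Cdkn2b (-0.70 and 0.12 in neural stem cells, against 2.17 and 4.56 in astrocytes; log2 fold change -3.65 ± 0.86, adjusted p = 0.0471), which block this kinase, were lower. Ccnd1, cyclin D1, was uneven and not called, at 2.97 and 6.95 in neural stem cells, against 4.98 and 6.57 in astrocytes. Of p53 targets 1 of 20 was lower, which is not above the 8.34% of all genes. It was the death receptor gene Fas, at -2.02 and -1.55 in neural stem cells, against 3.75 and 4.02 in astrocytes (log2 fold change -5.67 ± 0.44, adjusted p = 0.00481). Myc lost its call without neural stem cell array 2, at an adjusted p of up to 0.0557. Cdkn2a lost its call without either astrocyte array, at an adjusted p of up to 0.103. Cdk4 lost its call without neural stem cell array 2 or either astrocyte array, at an adjusted p of up to 0.0902. Cdkn2b lost its call without either neural stem cell array or astrocyte array 2, at an adjusted p of up to 0.137.

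Of DNA methylation and HMG genes 8 of 29 were higher and 0 lower (median 0.97). Higher calls numbered 7 and 2 without neural stem cell array 1 and 2, and 3 and 2 without astrocyte array 1 and 2. Chd7, a chromatin remodeller of neural progenitors, had signals of 5.31 and 5.44 in neural stem cells, against 2.73 and 2.01 in astrocytes (log2 fold change 3.01 ± 0.34, adjusted p = 0.00824), and Tdg, the glycosylase that completes DNA demethylation, -0.08 and 0.67 in neural stem cells, against -2.78 and -3.33 in astrocytes (log2 fold change 3.35 ± 0.38, adjusted p = 0.00871). The oxygenase gene Tet1 was also higher (1.86 and 1.31 in neural stem cells, against -0.99 and -1.42 in astrocytes; log2 fold change 2.79 ± 0.44, adjusted p = 0.018), as was the de novo methyltransferase gene Dnmt3a (3.96 and 3.43 in neural stem cells, against 1.92 and 1.32 in astrocytes; log2 fold change 2.08 ± 0.36, adjusted p = 0.0229), while Tet2 was not called (2.48 and 1.50 in neural stem cells, against 1.46 and 1.48 in astrocytes). Polycomb and H3K27 demethylase genes had 3 of 30 higher and 0 lower, near the share of all genes. Their median was 0.33, and -0.08 in the authors' deposited table, where its sign turned. Cbx2, the reader of the H3K27me3 mark in PRC1, had 0.43 and 1.46 in neural stem cells, against -2.37 and -1.74 in astrocytes (log2 fold change 3.00 ± 0.45, adjusted p = 0.016). Cbx2 lost its call without neural stem cell array 2 or either astrocyte array, at an adjusted p of up to 0.0702. Tet1 and Dnmt3a lost their calls with any 1 of the 4 arrays left out, at an adjusted p of up to 0.0948.

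Regional identity genes, which mark where along the neural tube a cell arose, were higher in 3 of 31 and lower in 5 (median -0.23), against 7.08% and 8.34% of all genes. Irx3, a homeobox factor of caudal neural tube, had signals of -3.45 and -2.81 in neural stem cells, against 3.35 and 2.57 in astrocytes (log2 fold change -6.09 ± 0.47, adjusted p = 0.00481), and Pax3, of the dorsal neural tube, -4.64 and -4.54 in neural stem cells, against 3.08 and -0.10 in astrocytes (log2 fold change -6.08 ± 1.04, adjusted p = 0.0226). Lower calls numbered 1 and 3 without neural stem cell array 1 and 2, and 3 and 4 without astrocyte array 1 and 2. In the other direction Emx2, a forebrain factor, had 0.30 and 0.07 in neural stem cells, against -3.14 and -2.11 in astrocytes (log2 fold change 2.81 ± 0.66, adjusted p = 0.0467) and Gsx2, a factor of the ventral forebrain, was at least 28.1-fold higher (15.4 to 51.2). Of 38 Hox genes 9 passed the background filter, 6 of them through astrocytes alone. Those 6 were bound to be brighter there, so the direction of the count is no result about the list. Of the 9 tested, 3 were lower in neural stem cells, among them Hoxa3, at least 4.92-fold lower (2.11 to 11.4), and Hoxb4, at least 5.29-fold lower. Imprinted growth genes had 2 of 17 higher, among them Magel2 of the Prader-Willi region (-1.05 and 0.24 in neural stem cells, against -4.16 and -4.80 in astrocytes; log2 fold change 4.08 ± 0.51, adjusted p = 0.0105), and 0 lower. Magel2 lost its call without astrocyte array 2, at an adjusted p of up to 0.0532. Pax3 and Hoxa3 lost their calls without either neural stem cell array, at an adjusted p of up to 0.129. Emx2 and Gsx2 lost their calls with any 1 of the 4 arrays left out, at an adjusted p of up to 0.167.

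Sterol synthesis genes were higher in 9 of 23 and lower in 0 (median 1.34). Both neural stem cell arrays were above both astrocyte arrays in 20, against 39.6% of all genes. Stard4, a sterol carrier, had signals of 2.40 and 3.25 in neural stem cells, against 0.47 and -0.11 in astrocytes (log2 fold change 2.65 ± 0.41, adjusted p = 0.018). Stard4 lost its call without neural stem cell array 2 or either astrocyte array, at an adjusted p of up to 0.0809. Higher calls numbered 3 and 0 without neural stem cell array 1 and 2, and 0 and 3 without astrocyte array 1 and 2. Of fatty acid and sterol efflux genes 2 of 22 were higher and 2 lower (median -0.20), near the 7.08% and 8.34% of all genes. Elovl6, an elongase of long-chain fatty acids, had 4.03 and 4.54 in neural stem cells, against 1.02 and 0.82 in astrocytes (log2 fold change 3.37 ± 0.30, adjusted p = 0.00563). Nr1h3, the oxysterol receptor LXR alpha, which turns on sterol efflux, was lower at -1.21 and -2.28 in neural stem cells, against 1.84 and 1.63 in astrocytes (log2 fold change -3.48 ± 0.42, adjusted p = 0.00995). Its target Apoe, the main lipoprotein of astrocytes, was high on 3 arrays and not on neural stem cell array 2 (8.39 and 2.66 in neural stem cells, against 9.09 and 8.73 in astrocytes), and was not called (adjusted p = 0.285).

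Of metallothionein and oxidative stress genes 8 of 24 were lower and 0 higher (median -1.70). Sod3, the extracellular superoxide dismutase, had signals of -1.50 and -2.80 in neural stem cells, against 4.60 and 4.88 in astrocytes (log2 fold change -6.90 ± 0.59, adjusted p = 0.00529). The NRF2 targets Hmox1 (1.48 and 2.27 in neural stem cells, against 5.83 and 5.56 in astrocytes; log2 fold change -3.82 ± 0.37, adjusted p = 0.00646) and Srxn1 (0.60 and 1.39 in neural stem cells, against 4.83 and 4.86 in astrocytes; log2 fold change -3.85 ± 0.37, adjusted p = 0.00638) were lower by nearly the same amount, and Nfe2l2, which encodes NRF2, had 1.80 and 3.14 in neural stem cells, against 4.89 and 4.88 in astrocytes (log2 fold change -2.41 ± 0.52, adjusted p = 0.0394). Another NRF2 target, Txnrd1, was not called (4.09 and 4.84 in neural stem cells, against 4.02 and 4.71 in astrocytes). Immediate early and heat shock genes were lower in 8 of 21 (median -2.89), such as the AP-1 member Fosl2 (-2.06 and -0.99 in neural stem cells, against 2.19 and 2.56 in astrocytes; log2 fold change -3.90 ± 0.43, adjusted p = 0.00824) and Zfp36, a destabiliser of cytokine messages, at least 13.2-fold lower (9.56 to 18.2). Of hypoxia and glycolysis genes 4 of 24 were lower, led by Ndrg1 (-2.66 and -1.90 in neural stem cells, against 5.16 and 4.05 in astrocytes; log2 fold change -6.88 ± 0.94, adjusted p = 0.0131). The median of that list was -0.25. It ran from -0.77 without neural stem cell array 1 to 0.03 without astrocyte array 1, so its sign rests on single arrays. The glycolytic enzyme gene Ldha was not called (7.67 and 7.97 in neural stem cells, against 7.13 and 7.25 in astrocytes). Lower calls in the oxidative stress list numbered 7 and 5 without neural stem cell array 1 and 2, and 4 and 3 without astrocyte array 1 and 2. In the immediate early list they numbered 3 and 4 without neural stem cell array 1 and 2, and 3 and 4 without astrocyte array 1 and 2. Nfe2l2 lost its call without neural stem cell array 1 or either astrocyte array, at an adjusted p of up to 0.136. Ndrg1 lost its call without either neural stem cell array or astrocyte array 1, at an adjusted p of up to 0.064.

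Axon guidance genes had 1 of 34 members higher and 3 lower, with a median of 0.02 that was -0.38 in the authors' deposited table. Against 7.08% and 8.34% of all genes, these counts are no result about the list. Within the Slit family of repellents the members went opposite ways: Slit1 was higher at 1.32 and 0.63 in neural stem cells, against -4.09 and -3.49 in astrocytes (log2 fold change 4.77 ± 0.70, adjusted p = 0.0154) and Slit2 lower at -2.04 and -1.75 in neural stem cells, against 1.58 and 1.77 in astrocytes (log2 fold change -3.57 ± 0.74, adjusted p = 0.0352). Sema3c, a secreted semaphorin, had signals of -3.81 and -2.33 in neural stem cells, against 2.84 and 3.13 in astrocytes (log2 fold change -6.06 ± 0.55, adjusted p = 0.00589). Of adhesion genes 6 of 33 were lower and 1 higher (median -0.69). Itga3, a laminin-binding integrin chain, had -4.99 and -4.18 in neural stem cells, against 1.35 and 1.05 in astrocytes (log2 fold change -5.78 ± 0.49, adjusted p = 0.00519), and Icam1, the leukocyte ligand induced in inflammation, was at least 21.5-fold lower (7.95 to 57.9). Lower calls numbered 2 and 1 without neural stem cell array 1 and 2, and 3 and 2 without astrocyte array 1 and 2. Icam1 lost its call without either neural stem cell array or astrocyte array 2, at an adjusted p of up to 0.0834. Slit1 and Slit2 lost their calls with any 1 of the 4 arrays left out, at an adjusted p of up to 0.132.

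Differences between the arrays of 1 group are given as a description, with no test. Neural stem cell array 2 stood above array 1 by more than 5 log2 units for Cd93, a C1q receptor-like protein of endothelium and myeloid cells (-5.13 and 2.61), for the vessel ligand Apln (-2.51 and 2.74) and for Angpt2, a regulator of vessel growth (-4.97 and 0.25). Array 1 stood above array 2 in the retinol reductase gene Dhrs3 (3.33 and -2.88) and in the lactate exporter Slc16a3 (3.50 and -2.22). In astrocytes array 2 was higher for Cthrc1, a collagen-associated protein (-4.34 and 3.33), and for Igfbp6 (-1.66 and 5.42), and array 1 for the inner ear protein gene Otos (3.49 and -2.11) and for the imprinted cell cycle inhibitor Cdkn1c (3.91 and -1.29). Cdkn1c was uneven in the same sense in neural stem cells (5.17 and 0.98), and it was not called between groups (adjusted p = 0.648).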

How the data were processed

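Scanner output of each array was deposited as Agilent Feature Extraction text, version 10.7.1.1 per the file headers of the cell arrays and 10.7.3.1 per the submitters' processing notes. The values used were the processed signal, an intensity from which background had been subtracted, per the file headers. The deposited table of log2 values equalled the log2 processed signal within 0.01, with no scaling between arrays.

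From these, control spots and outlier spots were left out, spots of a probe were averaged, and log2 processed signals were scaled to each array's 75th percentile over non-control probes, leaving 55669 of 55681 probes. Of all probes 27232 were named through a RefSeq accession, 3579 through a current symbol, 565 through an older symbol and 24293 by the file's own name, and names from the array design can be old. Where several tested probes named 1 gene, the brightest stood for it. The limma functions lmFit and eBayes were run on all 6 cell arrays, with 3 residual degrees of freedom, and p-values were adjusted by Benjamini and Hochberg's method. Tissue arrays were left out. Versions were limma 3.58.1 in R 4.3.3, and pandas 2.3.3 with numpy 2.4.6 in Python 3.11.15.

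The 49 gene lists were chosen with earlier results of these data known. Genes named were marker genes, the largest changes and bounds, up to 6 called members of each list in each direction by size, and the largest differences within a group, of which the text gives a part; other list members are given with their values only. Alternatives were the fit of 4 arrays, other background corrections, scalings, filters, probe rules and priors, a replicate block, and each array left out. Some genes are not reported here.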

Additional observations from a re-analysis of the deposited data

How the results depend on the processing

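The count of 3768 genes called was 2492 with only probes well above background on all 4 arrays, where the higher calls numbered 1348 and the lower calls 1144 and fewer genes were tested. Higher calls, 1730 as reported, numbered 1015 in the fit of the 4 arrays alone, 675 in the authors' deposited table and 1134 with no filter on dim probes. Lower calls in those 3 settings numbered 1772, 2133 and 1591. The cause was not tested. Leaving out either glioma array gave 2787 calls, 1015 higher and 1772 lower, as in the fit of the 4 arrays, since a lone glioma array adds nothing to the spread. With 1 of the 4 arrays left out, all calls ran from 1276 to 2675, higher calls from 423 to 1311 and lower calls from 821 to 1364. The lone array of that group is then taken to vary like the others. Normexp correction, quantile scaling, the mean of a gene's probes, and a trended robust prior kept all 3 counts within 1.5 times.

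Replicate numbers recur across groups in the labels, but the deviations of same-numbered arrays from their group means correlated at 0.13 between neural stem cells and astrocytes, and the arrays share only a number. With the replicate block 3199 genes were called, 1295 higher and 1904 lower. Slide and scan were not run as a block, since all 6 cell arrays lay on 1 slide and were read in 1 scan.

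Of 154 called genes named above, 123 kept their call and direction in those of the 9 alternatives, other than leaving out an array, where they were tested. Genes with no probe well above background on all 4 arrays, such as those given as bounds, were not tested under that filter. For them that alternative was passed over and could not end a call. Fewer genes kept their call with each of the 4 arrays left out. Of those 9 alternatives, the authors' deposited table ended 18 of these calls, no filter 17 and the 4 arrays alone 12. Apln, not called as reported (-0.68), was called with the other sign in 1 setting and ran from -3.30 without neural stem cell array 2 to 1.95 without array 1. With 2 arrays a group, signal near background and spread between arrays limit what could be called: of the genes tested, 889 were not well above background in neural stem cells and 511 in astrocytes.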
